A study of Homo sapiens with 18 samples.

Results

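The interferon-stimulated genes and nucleic acid sensors were followed as a list of 57 genes in breast cancer cells treated with antisense oligonucleotides (ASOs) against long non-coding RNAs. The list held 39 effectors, 5 transcription factors or regulators and 13 sensors with their adaptors and kinases, and was matched to array features by gene symbol or older alias. A feature, meaning the set of probes that reports 1 locus, was found for 41 of the 57 genes, out of 14884 distinct gene symbols on the array, and each of the 41 had 1 feature. The 16 genes without a named feature were MX1, OAS1, OAS2, OAS3, IFI6, IFI27, CMPK2, PARP9, PARP14, GBP1, GBP2, ADAR, ZC3HAV1, STAT2, NLRC5 and IKBKE, and they were not analysed here.

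Total RNA from 3 established human breast cancer lines was hybridised to 18 Affymetrix arrays, in 6 groups of 3 replicates. SKBR3, a HER2-positive line, received an ASO against LINC01269 or a control ASO. MDA-MB-231 and MDA-MB-468, both triple-negative lines, received an ASO against AL078604.2 or a control ASO. Every group was transfected for 48 h with 15 nM of a GapmeR, an oligonucleotide that directs RNase H to its target RNA, mixed with the TransIT-BrCa reagent, so the controls also carried an oligonucleotide and the reagent, and no array of cells without an ASO was analysed here. Each long non-coding RNA was targeted with 1 ASO, and neither target had a named feature, so the knockdown itself was not analysed here. The labels do not say whether replicates were separate cultures, so p-values measure the spread between these arrays, which may be technical.

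Values are log2 expression values as deposited, and ranged from 0.414 to 13.8. Replicates of a group correlated with Pearson r between 0.985 and 0.992 over all features. The array medians were 4.56 to 4.63 in SKBR3, 5.41 to 5.43 in MDA-MB-231 and 5.21 to 5.24 in MDA-MB-468, so values were compared within a line, and across lines only percentiles among all features of a line are given. Line markers went partly against the labels. EPCAM, an epithelial adhesion protein that MDA-MB-231 is known to express weakly, lay at the 98.9, 99.2 and 99.3 percentiles of the SKBR3, MDA-MB-231 and MDA-MB-468 controls, and GRB7, a neighbour of ERBB2 amplified with it in SKBR3, lay at 79.1, 81.3 and 78.8. KRT18 and KRT8, taken as markers of SKBR3, lay at 98.7, 98.5 and 97 and at 77.6, 74 and 75.5 in the same order. Of the mesenchymal markers of MDA-MB-231, AXL lay at 80.7 in SKBR3, 83.2 in MDA-MB-231 and 60.1 in MDA-MB-468. VIM lay at 76.1, 76.6 and 82.1, and ZEB1 at 43.7, 45.8 and 33.3, so AXL and ZEB1 hardly separated MDA-MB-231 from SKBR3. Of the basal keratins of MDA-MB-468, KRT5 lay at 69.6, 73.4 and 85.8 in that order of lines, and KRT14 at 71.9, 89.2 and 79.3. EGFR, a further marker of MDA-MB-468, lay at 99, 98.2 and 98.7 and was not higher there. RB1, which MDA-MB-468 is known to have lost, lay at 24.9 in MDA-MB-468, 60.3 in MDA-MB-231 and 47.7 in SKBR3. The lines are therefore named as the arrays are labelled.

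Cells detect misplaced or foreign nucleic acids through RNA sensors such as RIGI and IFIH1, which signal through MAVS, through CGAS, which senses DNA and signals through STING1, and through TLR3, which signals through TICAM1. These routes converge on the kinase TBK1 and on the transcription factors IRF3 and IRF7, which switch on interferon genes. Secreted interferon acts through JAK-STAT signalling, and interferon regulatory factors bind the interferon-stimulated response element (ISRE) in the promoters of effector genes, many of which also respond to IRF3 directly.

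To test differences, each feature that passed a filter on dim values, 29855 in all, was fitted with limma across the 18 arrays, and a feature was called when its p adjusted over all tested features was under 0.05. Of the 41 genes with a feature, 36 passed the filter: 23 effectors, 3 regulators and 10 sensors. Of these, 29 passed in all 6 groups and 7 in some, and RSAD2 and DDX60 passed only through a group that had received an ASO against a long non-coding RNA. The counts over the 36 genes are descriptions of the genes that passed.

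The percentile of a gene's feature in the control arrays is given for comparison across lines, and not between genes, since the signals of different probes are not on a common scale. EIF2AK2, the RNA-activated kinase PKR, lay at the 97.1 percentile in all 3 lines, and IFITM2, a membrane protein that blocks virus entry, lay at 96.4, 97.9 and 96.1 in SKBR3, MDA-MB-231 and MDA-MB-468. CGAS lay at 67.2, 62.1 and 53.3 in the same order, and HERC5, the ligase that attaches ISG15 to proteins, at 65.7, 73.1 and 61.7. The feature of the DNA sensor AIM2 lay at 27.6, 19.8 and 18.3.

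With the ASO against AL078604.2, 4 effectors rose when the differences of MDA-MB-231 and MDA-MB-468 were averaged: IFIT2, IFIT3, HERC5 and SAMD9. IFIT2 rose 1.64-fold, IFIT3 1.51-fold, HERC5 1.49-fold and SAMD9 1.38-fold. IFIT2 and IFIT3 belong to a family of RNA-binding proteins that restrict viral translation, and SAMD9 restricts poxviruses. These 4 were all of the called genes among the 36, none was called lower, and the calls over all tested features were 1.6%, with 0.703% higher and 0.898% lower. None of the 10 sensors was called.

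The IFIT2 values set the scale of the difference. In MDA-MB-231 the 3 controls were 6.08, 5.81 and 5.77 (mean 5.88 ± 0.172, SD, n = 3), and the 3 arrays with the ASO against AL078604.2 were 6.24, 6.97 and 7.27 (6.83 ± 0.528). In MDA-MB-468 the controls were 5.838, 5.854 and 6.004 (5.90 ± 0.0913) and the arrays with that ASO 6.40, 6.52 and 6.25 (6.39 ± 0.138). The groups did not overlap in either line, and in MDA-MB-231 replicate 1 stood nearest to the controls. Averaged over both lines the log2 difference was 0.72 ± 0.148 (SE; 95% interval 0.40 to 1.03; limma adjusted p = 0.0246).

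For IFIT3 in MDA-MB-231 the controls were 6.67, 6.77 and 6.61 (6.69 ± 0.0787) and the treated arrays 7.01, 7.31 and 7.73 (7.35 ± 0.364). In MDA-MB-468 its controls were 6.02, 6.19 and 6.47 (6.23 ± 0.228) and the treated arrays 6.90, 6.65 and 6.72 (6.76 ± 0.132). Its groups did not overlap in either line, and the mean log2 difference was 0.60 ± 0.133 (limma adjusted p = 0.0349). IFIT2 and IFIT3 were the 2 genes of the 36 whose treated arrays all exceeded all controls in both lines, against 1.43% of all tested features, and no gene of the 36 lay below in both lines, against 1.35%.

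**Figure D1:**
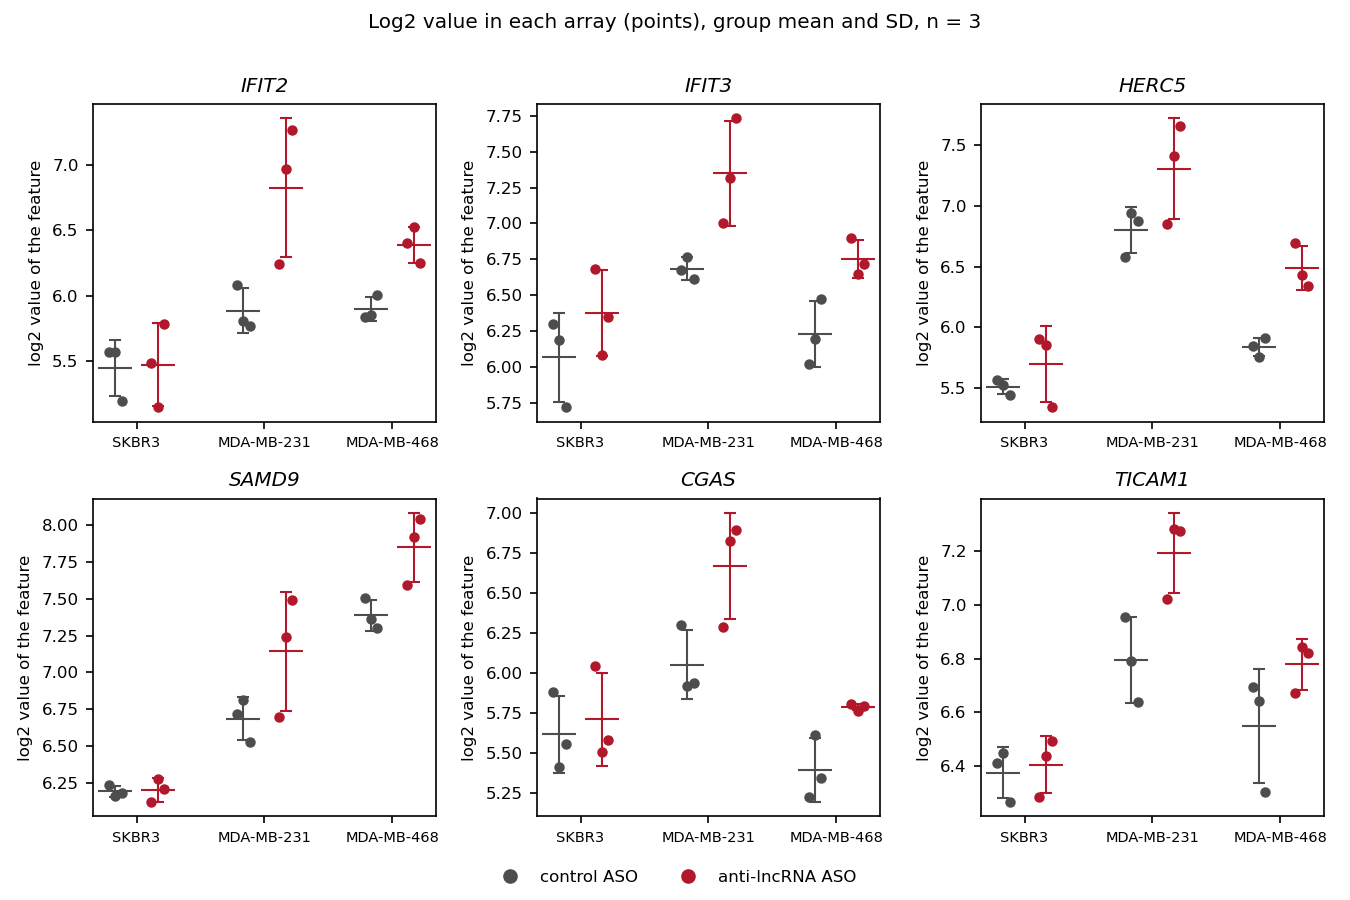
Log2 expression (y axis) of IFIT2, IFIT3, HERC5, SAMD9, CGAS and TICAM1 in each of the 18 arrays, grouped by line and ASO (x axis). Each point is 1 array and the bars give the group mean and SD (n = 3); the IFIT2 and IFIT3 points of the ASO against AL078604.2 lie above all controls in both MDA-MB-231 and MDA-MB-468, and the SKBR3 groups overlap.

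HERC5 was 6.58, 6.94 and 6.87 in the MDA-MB-231 controls (6.80 ± 0.191) and 6.85, 7.41 and 7.66 in the treated arrays (7.31 ± 0.412), so replicate 1 of the treated arrays fell within the controls. In MDA-MB-468 it was 5.85, 5.76 and 5.91 in the controls (5.84 ± 0.0771) and 6.69, 6.43 and 6.34 in the treated arrays (6.49 ± 0.183), with no overlap. The mean log2 difference was 0.58 ± 0.127 (limma adjusted p = 0.032). HERC6, its paralog and neighbour on chromosome 4, had a mean log2 difference of -0.08 ± 0.0791 (limma adjusted p = 0.746).

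SAMD9 was 6.72, 6.81 and 6.52 in the MDA-MB-231 controls (6.69 ± 0.147) and 6.70, 7.24 and 7.49 in the treated arrays (7.14 ± 0.404). Again replicate 1 of the treated arrays lay among the controls. In MDA-MB-468 it was 7.50, 7.36 and 7.30 in the controls (7.39 ± 0.104) and 7.59, 7.92 and 8.04 in the treated arrays (7.85 ± 0.233), without overlap. The mean log2 difference was 0.46 ± 0.11 (limma adjusted p = 0.0464), whereas SAMD9L, the paralog beside it on chromosome 7, was at -0.03 ± 0.103 (limma adjusted p = 0.955). The SAMD9 call held in 3 of 9 other settings and was lost, among others, under quantile normalization (limma adjusted p = 0.0507), median centring, a fit without an intensity trend, no filter and the compared lines alone. Paralogs of the IFIT, IFITM, HERC, SAMD9 and DDX60 families are similar in sequence, and how far their probes share signal was not tested.

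The calls depended on single arrays. When 1 of the 12 arrays was left out, 0 genes were called in 7 of the 12 refits, which were those without MDA-MB-231 control replicate 2 or 3, MDA-MB-231 treated replicate 2 or 3, MDA-MB-468 control replicate 1 or 2, or MDA-MB-468 treated replicate 2. A single gene was called without MDA-MB-231 control replicate 1 (IFIT2), MDA-MB-468 control replicate 3 (IFIT3) or MDA-MB-468 treated replicate 1 (SAMD9), while the IFIT2 difference stayed between 0.61 and 0.86 on the log2 scale over all 12.

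Among the sensors and adaptors, CGAS and TICAM1 stood closest to the threshold. CGAS was 6.30, 5.92 and 5.94 in the MDA-MB-231 controls (6.05 ± 0.216) and 6.29, 6.82 and 6.90 in the treated arrays (6.67 ± 0.332). In MDA-MB-468 it was 5.22, 5.61 and 5.34 in the controls (5.39 ± 0.2) and 5.80, 5.76 and 5.80 in the treated arrays (5.79 ± 0.0209). The MDA-MB-231 groups overlapped through replicate 1 and the MDA-MB-468 groups did not, and the mean log2 difference of 0.51 ± 0.127 missed the threshold (limma adjusted p = 0.0561).

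TICAM1, the adaptor of TLR3 also known as TRIF, was 6.96, 6.79 and 6.64 in the MDA-MB-231 controls (6.80 ± 0.159) and 7.02, 7.28 and 7.28 in the treated arrays (7.19 ± 0.149). In MDA-MB-468 it was 6.69, 6.64 and 6.30 in the controls (6.55 ± 0.212) and 6.67, 6.84 and 6.82 in the treated arrays (6.78 ± 0.0935). The groups were apart in MDA-MB-231 and overlapped in MDA-MB-468. The mean log2 difference was 0.31 ± 0.0818 (limma adjusted p = 0.0644). Other sensors had smaller mean log2 differences: 0.22 for IFIH1, 0.14 for TBK1, 0.10 for RIGI, 0.09 for STING1, 0.07 for MYD88, 0.06 for TLR3, 0.02 for DHX58, a regulator of RIGI and IFIH1, and -0.05 for MAVS.

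By counts, 31 of the 36 genes had a mean difference above 0, against 52% of all tested features, and the median log2 difference was 0.11 against 0.01 over all tested features. An unadjusted p under 0.05 was reached by 13 of the 36 genes in the higher direction (7.54% of all features) and 0 in the lower direction (7.05%). Effectors had a median of 0.12 with 19 of 23 above 0, sensors a median of 0.10 with 9 of 10 above 0, and the 3 regulators a median of 0.10, with IRF7 at 0.19, IRF9 at 0.10 and IRF3 at 0.02. RSAD2 and DDX60, which passed the filter only through treated groups, are among the genes above 0. DDX60 is also among those with an unadjusted p under 0.05. These counts give the direction of genes that share arrays, and no test over the list was made.

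The effectors that were not called spread from -0.08 to 0.32. DDX60, a helicase linked to RIGI signalling, was at 0.32 (limma adjusted p = 0.12), IFIT1 at 0.23 and IFIT5 at 0.19. ISG20, a nuclease, and IFI35 were both at 0.15, RSAD2, the antiviral enzyme viperin, and IFITM1 at 0.13, EPSTI1 and OASL at 0.12, EIF2AK2 at 0.11, and TRIM22 at 0.09. ISG15, the ubiquitin-like modifier, and USP18, the protease that removes it, were both at 0.08, followed by IFITM2 at 0.06 and XAF1 at 0.05. IFITM3 was at -0.01, and MX2 and SAMD9L were both at -0.03.

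**Figure D2:**
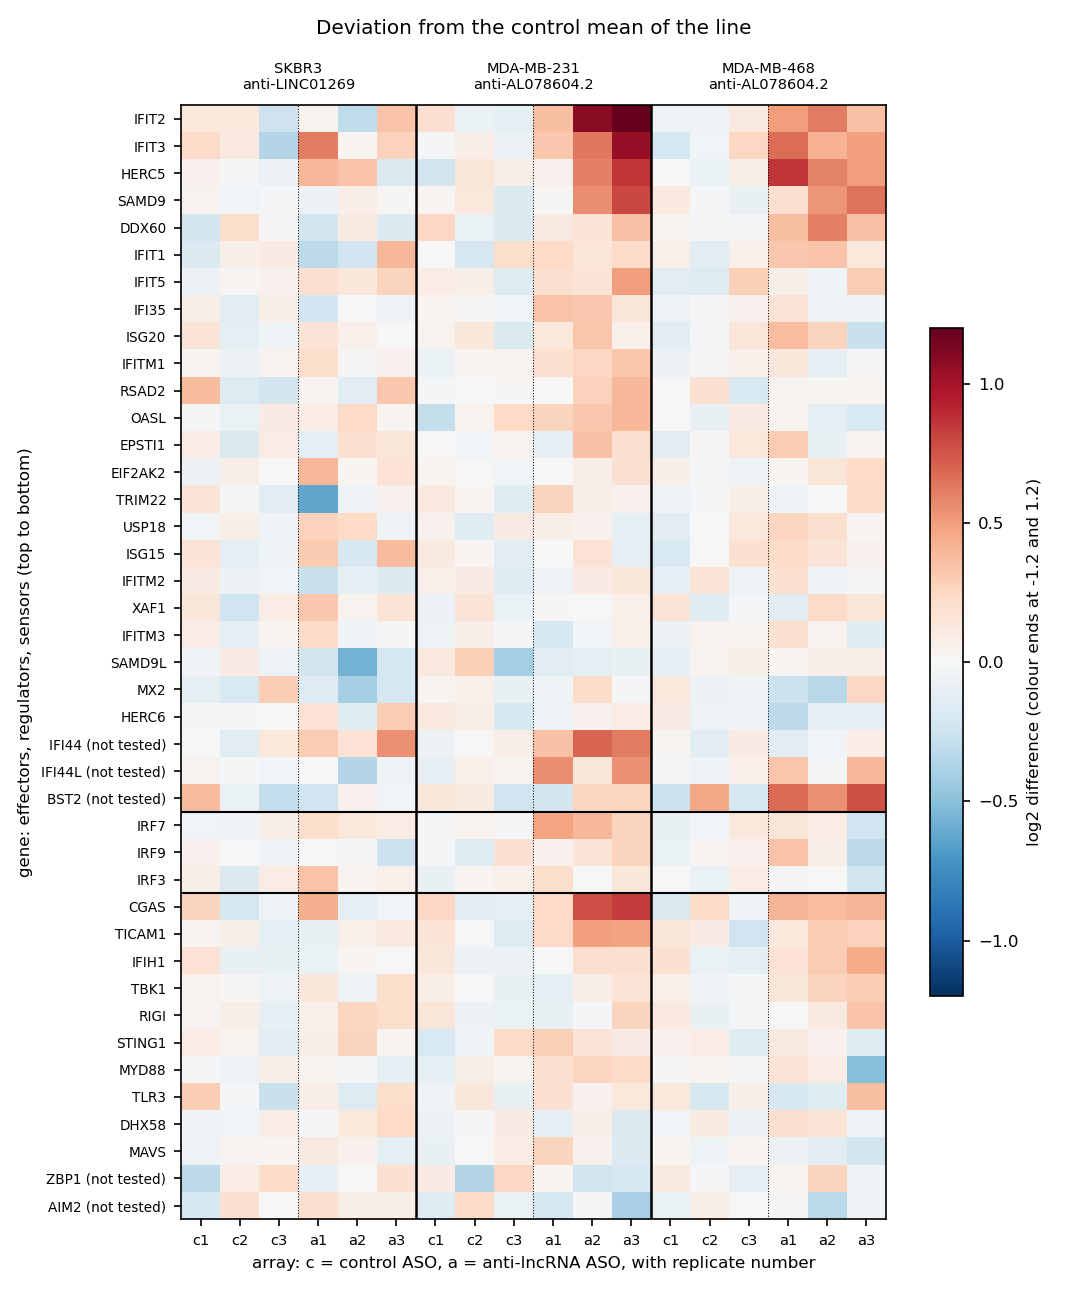
Deviation of each gene from the control mean of its line (colour, log2 units) for the 41 genes with a feature (rows, by role) in the 18 arrays (columns, by line and ASO). IFIT2 and IFIT3 lie above the control mean in all 6 arrays with the ASO against AL078604.2. The SKBR3 arrays with the ASO against LINC01269 lie on both sides of it for IFIT2 and all above it for IFIT3.

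Promoter stretches are shown here for 5 of the genes with values in every array whose window holds an ISRE core. The ISRE is the element that interferon regulatory factors bind in the promoters of effector genes, and binding was not tested here. RefSeq (GRCh38.p14) held a promoter, from 250 bases before to 50 after the gene start, for 29 of the 41 genes. CGAS, DHX58, IFIT2, IFITM2, IRF3, IRF7, MX2, OASL, STING1, TRIM22, USP18 and ZBP1 had no entry. The ISRE core was searched as GAAA, any 2 bases and GAAA, which reads TTTC, any 2 bases and TTTC on the other strand, and each stretch runs 5′ to 3′ on the strand of its gene with every match in capitals. The stretches lie at chr4:88456969-88457079 (plus strand) for HERC5, chr7:93118081-93118140 (minus) for SAMD9, chr4:168318771-168318865 (minus) for DDX60, chr2:162318685-162318868 (minus) for IFIH1 and chr11:313975-314034 (plus) for IFITM1.
HERC5: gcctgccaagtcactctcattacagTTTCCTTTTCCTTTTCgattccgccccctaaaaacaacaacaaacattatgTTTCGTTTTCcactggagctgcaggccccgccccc
SAMD9: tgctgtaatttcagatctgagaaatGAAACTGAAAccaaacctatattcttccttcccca
DDX60: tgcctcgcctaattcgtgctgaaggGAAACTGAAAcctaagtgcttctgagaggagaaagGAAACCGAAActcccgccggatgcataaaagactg
IFIH1: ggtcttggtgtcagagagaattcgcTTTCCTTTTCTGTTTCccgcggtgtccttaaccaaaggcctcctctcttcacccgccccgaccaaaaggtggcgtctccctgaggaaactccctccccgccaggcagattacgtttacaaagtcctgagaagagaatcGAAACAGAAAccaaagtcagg
IFITM1: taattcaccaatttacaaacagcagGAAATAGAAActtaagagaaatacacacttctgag

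HERC5 and IFIH1 each held 3 cores, 2 of them overlapping, DDX60 held 2, and SAMD9 and IFITM1 held 1 in the stretch shown. The core was present in 19 of the 29 promoters (65.5%), against 1243 of 34796 RefSeq promoters of the same length (3.57%). The 29 were counted as 1 promoter per gene and the 34796 as distinct sequences, which can include several of a gene. The list was chosen for genes that respond to interferon, so these shares make no test. A match describes letters in the window and is not evidence that a factor bound there.

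Of the 36 tested genes, 15 had an ISRE core and 10 had a promoter without one. Averaged over MDA-MB-231 and MDA-MB-468, the 15 had a median log2 difference of 0.15 with 14 above 0, and the 10 had a median of 0.10 with 7 above 0. The called genes HERC5, IFIT3 and SAMD9 carried the core, and IFIT2 had no entry. In SKBR3 the medians were 0.08 and 0.05. These medians are given as a description, with no test.

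Within MDA-MB-231 alone, IFIT2 had the lowest p of the 36 genes, at a log2 difference of 0.94 ± 0.209 (1.92-fold; limma adjusted p = 0.0861), and none of the 36 was called, against 0.171% of all tested features (0.0971% higher and 0.0737% lower). Above 0 were 33 of 36 genes (53% of all features), with a median of 0.15 against 0.01. RSAD2 (0.23) and DDX60 (0.21) are among the 33. Both passed the filter only through treated groups, which favoured this direction. An unadjusted p under 0.05 was reached by 11 genes in the higher direction (4.9% of all features) and 0 in the lower (4.45%). The treated arrays all exceeded the controls for 9 genes (9.28% of all features), namely IFIT2, IFIT3, IFIT5, OASL, IFI35, IFITM1, IRF7, MYD88 and TICAM1, and lay below them for 0 (7.87%).

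IRF7, the factor that amplifies interferon induction, had narrow groups in MDA-MB-231: 6.36, 6.42 and 6.35 in the controls (6.37 ± 0.0371) and 6.85, 6.77 and 6.64 in the treated arrays (6.75 ± 0.103). The groups stood apart, and the log2 difference was 0.38 ± 0.0999 (limma adjusted p = 0.15). IFITM1, which like IFITM2 blocks virus entry, was 8.88, 8.98 and 8.99 in the controls and 9.15, 9.20 and 9.28 in the treated arrays. Its difference of 0.26 ± 0.0758 also missed the threshold (limma adjusted p = 0.199).

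The rest of the 6 genes with the smallest p in MDA-MB-231 were IFIT3 at 0.66 ± 0.189 (limma adjusted p = 0.182), TICAM1 at 0.40 ± 0.116 (0.194) and CGAS at 0.62 ± 0.18 (0.195). Their array values are given above. Treated replicate 1 was the lowest of the 3 treated arrays for IFIT2, IFIT3, HERC5, SAMD9, CGAS and TICAM1. Without it, 5 genes of the 36 were called in this line, IFIT2, IFIT3 and CGAS among them, and 535 features in all against 51.

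Within MDA-MB-468 the genes with the lowest p were HERC5, DDX60, SAMD9, IFIH1, IFIT3 and TBK1, and again none of the 36 was called, against 0.0067% of all tested features, all of them higher (0% lower). HERC5 differed by 0.65 ± 0.18 (limma adjusted p = 0.248). DDX60 was 5.22, 5.17 and 5.16 in the controls and 5.55, 5.79 and 5.54 in the treated arrays, a difference of 0.44 ± 0.142 (limma adjusted p = 0.304). DDX60 passed the filter only where an ASO against a long non-coding RNA had been given, so a difference in that direction was built into its passing.

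IFIH1, the sensor of long double-stranded RNA, was 7.50, 7.23 and 7.21 in the MDA-MB-468 controls and 7.48, 7.62 and 7.76 in the treated arrays, with overlap through control replicate 1. Its log2 difference was 0.31 ± 0.106 (limma adjusted p = 0.327). TBK1 was 8.99, 8.88 and 8.90 in the controls and 9.06, 9.19 and 9.22 in the treated arrays, without overlap, and differed by 0.23 ± 0.085 (limma adjusted p = 0.341). Both showed smaller values in MDA-MB-231, at 0.13 for IFIH1 and 0.04 for TBK1.

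In MDA-MB-468, 30 of the 36 genes were above 0 (49.1% of all features) with a median of 0.08 against 0.00 over all features. An unadjusted p under 0.05 was reached by 8 genes in the higher direction (5.25%) and 0 in the lower (5.24%). The treated arrays exceeded all controls for 8 genes (8.41% of all features), IFIT1, IFIT2, IFIT3, HERC5, DDX60, SAMD9, CGAS and TBK1, and lay below all controls for 2, HERC6 and MAVS (8.5%). DDX60 is among the genes of each count in the higher direction, where its passing the filter favoured it. HERC6 differed by -0.18 ± 0.112 and MAVS, the mitochondrial adaptor of the RNA sensors, by -0.14 ± 0.0941, both past no threshold (limma adjusted p = 0.62 and 0.642).

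The response of the lines to the ASO against AL078604.2 was compared directly as the MDA-MB-231 difference minus the MDA-MB-468 difference, with separate controls in each line. No gene of the 36 and no feature was called (0%), and the unadjusted p was under 0.05 for 3 of the 36 in the direction of MDA-MB-231 (2.36% of all features) and 0 in the other (1.81%), while 22 of 36 lay above 0 (52.5%). The 3 were IRF7 at 0.38 ± 0.141 (95% interval 0.08 to 0.68), OASL, a protein related to the oligoadenylate synthetases, at 0.42 ± 0.167, and IFITM1 at 0.26 ± 0.107, each with a limma adjusted p of 0.998. The difference between lines was 0.45 for IFIT2, with an interval of -0.18 to 1.08, and the intervals of IFIT3 (-0.43 to 0.70), HERC5 (-0.68 to 0.39) and SAMD9 (-0.47 to 0.46) also spanned 0.

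Set side by side, 27 of the 36 genes were above 0 in both lines (75%), against 30.5% of all tested features. RSAD2 and DDX60, which passed the filter only through treated groups, are among the 27. Below 0 in both lines were 0 of the 36, against 8498 of 29855 tested features. Over the 36 genes the log2 differences of the lines correlated with Pearson r = 0.622 and Spearman rho = 0.319, against 0.326 and 0.28 over all tested features. Genes that share arrays are not independent replicates.

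**Figure D3:**
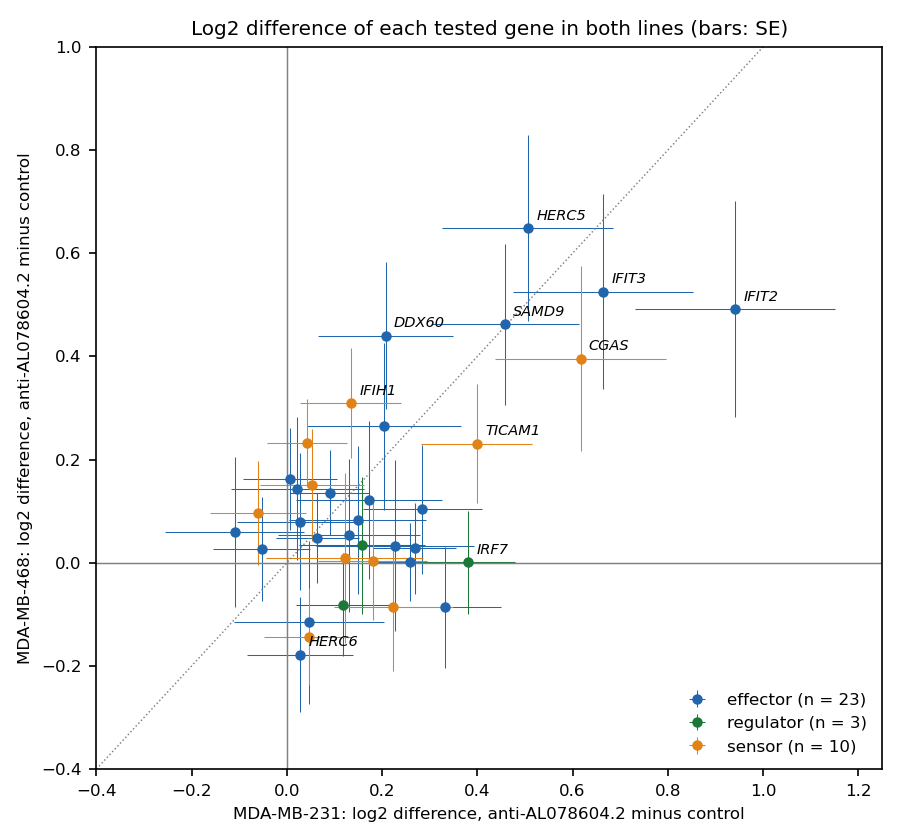
Log2 difference with the ASO against AL078604.2 in MDA-MB-231 (x axis) and MDA-MB-468 (y axis) for the 36 tested genes, by role, with SE bars. IFIT2, IFIT3, HERC5, SAMD9 and CGAS lie farthest toward the upper right, while IRF7, OASL and IFITM1 lie to the right with values near 0 on the y axis.

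With the ASO against LINC01269 in SKBR3, none of the 36 genes was called, and neither was any of the 29855 features (0%) by limma, while 1604 features had an unadjusted p under 0.05 in the higher direction (5.37%) and 1132 in the lower (3.79%). Among the 36 genes, 1 was on each side, EIF2AK2 higher and SAMD9L lower. Above 0 were 26 of 36 (54% of all features), with a median log2 difference of 0.08 against 0.01. Differences ran from -0.33 to 0.31.

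EIF2AK2 was 9.69, 9.84 and 9.76 in the SKBR3 controls and 10.16, 9.79 and 9.94 in the treated arrays. The groups overlapped, and the log2 difference was 0.20 ± 0.0831 (limma adjusted p = 0.502). SAMD9L was 5.21, 5.35 and 5.18 in the controls and 5.02, 4.68 and 5.03 in the treated arrays. The treated arrays were all lower, at a difference of -0.33 ± 0.145 (limma adjusted p = 0.509).

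IFITM2 was 9.61, 9.43 and 9.48 in the SKBR3 controls and 9.24, 9.39 and 9.34 in the treated arrays, also without overlap, at -0.18 ± 0.0876 (limma adjusted p = 0.551). RIGI, the sensor of short RNA with a triphosphate end, was 7.52, 7.56 and 7.40 in the controls and 7.56, 7.75 and 7.70 in the treated arrays. MX2, a dynamin-like GTPase that restricts retroviruses, was 4.88, 4.81 and 5.28 in the controls and 4.83, 4.59 and 4.78 in the treated arrays. Both overlapped between groups, at 0.18 ± 0.108 and -0.26 ± 0.158 (limma adjusted p = 0.655 and 0.658).

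IFIT3 was 6.30, 6.19 and 5.72 in the SKBR3 controls and 6.69, 6.09 and 6.35 in the treated arrays, a difference of 0.31 ± 0.189 with overlap (limma adjusted p = 0.661). IFIT2 was at 0.03, with controls of 5.57, 5.57 and 5.20 and treated arrays of 5.49, 5.14 and 5.78. HERC5 was at 0.19, CGAS at 0.09, TICAM1 at 0.03 and SAMD9 at 0.01. The treated arrays exceeded all controls for 2 of the 36 genes, IFIT5 and IRF7 (7.28% of all features), and lay below them for 2, IFITM2 and SAMD9L (4.26%). SKBR3 differed from the other lines in cell line, target and ASO at once, so these cannot be told apart, and the difference between its response and theirs was not tested.

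The median over the 36 genes, taken array by array against the control mean of the line, gave 1 value per sample. In MDA-MB-231 the treated arrays were at 0.10, 0.16 and 0.19 and the controls at 0.03, 0.03 and -0.07. In MDA-MB-468 the treated arrays were at 0.15, 0.09 and 0.07 and the controls at -0.01, -0.02 and 0.04, and in SKBR3 the treated arrays were at 0.08, 0.02 and 0.05 and the controls at 0.05, -0.03 and -0.02. The treated arrays exceeded all controls in MDA-MB-231 and MDA-MB-468 and overlapped them in SKBR3, while the median of all features stayed between -0.02 and 0.03.

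**Figure D4:**
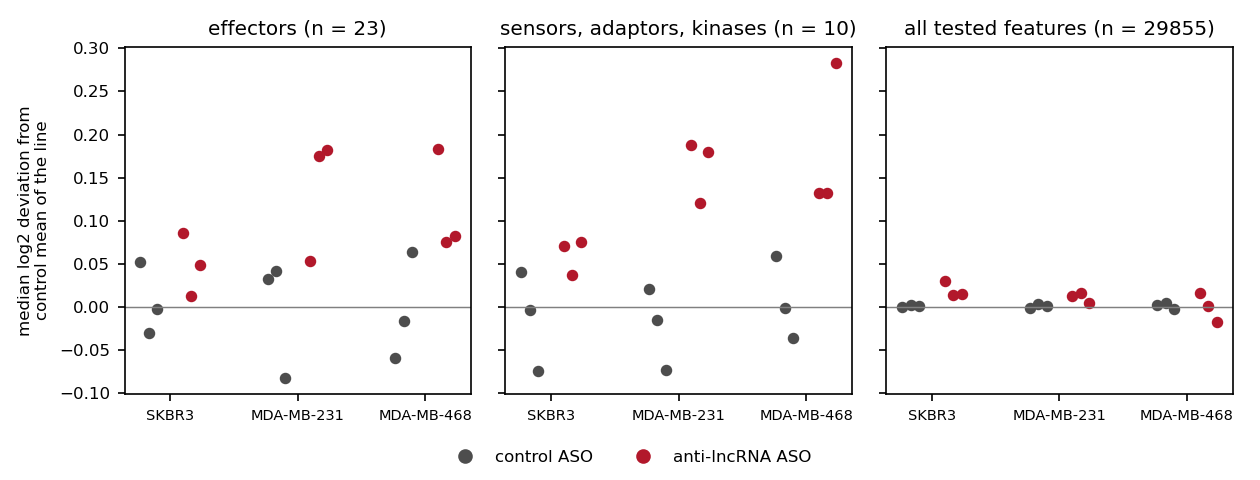
Median deviation from the control mean of the line (y axis, log2 units) over the tested effectors, the tested sensors and all tested features, for each of the 18 arrays (x axis, by line and ASO). The medians over all features stay within -0.02 to 0.03, while the sensor medians of the ASO against AL078604.2 lie between 0.12 and 0.28.

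In these bulk RNA samples a larger share of responding cells and more RNA per cell cannot be told apart. Of 8 leukocyte markers, 3 had a feature, and their summed log2 values were 16.55 to 17.32 in the MDA-MB-231 controls and 17.21 to 17.79 in the treated arrays, and 14.88 to 15.4 against 15.01 to 16.48 in MDA-MB-468. Of these, CD14 and LYZ were dim, at or under the 43.7 percentile in every line, and the summed level of 3 of 6 fibroblast and endothelial markers was 12.73 to 13.37 against 13.09 to 13.78 and 12.03 to 12.61 against 12.1 to 12.48. In SKBR3 this second sum was 9.431 to 9.88 in the controls and 9.996 to 10.6 in the treated arrays, without overlap. The leukocyte sum there was 12.95 to 13.47 against 13.27 to 13.47. The third leukocyte marker, CD68, lay at the 78.1, 84.1 and 68.7 percentiles of the SKBR3, MDA-MB-231 and MDA-MB-468 controls. The samples were established cancer lines, and these sums were not read as a content of other cells. What the markers add to the result was not tested.

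The other genes of the pathway were described from lists of ligands, receptors, regulators, further interferon-stimulated genes and inflammatory targets. Of 25 tested further interferon-stimulated genes, 2 rose in the mean of both lines, where 0.703% of all tested features were called higher: IRF1, a transcription factor induced by interferon gamma, by 0.45 ± 0.101 (limma adjusted p = 0.0349), and DDX60L, the paralog of DDX60, by 0.41 ± 0.093 (limma adjusted p = 0.038). The IRF1 difference was 0.70 in MDA-MB-231 and 0.20 in MDA-MB-468 (limma adjusted p = 0.0612 and 0.672), and the difference between the lines was 0.50 ± 0.202 (limma adjusted p = 0.998). DDX60L was at 0.35 in MDA-MB-231 and 0.47 in MDA-MB-468. When 1 array was left out, each of these calls held in 2 of 12 refits, those without MDA-MB-231 treated replicate 1 or MDA-MB-468 treated replicate 3. The median of the 25 was 0.04, with 18 above 0, against 0.01 and 52% over all tested features. GBP3, a guanylate-binding protein, was at 0.29 (limma adjusted p = 0.057).

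In the mean of both lines, no gene was called, against 1.6% of all tested features, among 6 tested receptors and JAK-STAT components (median -0.02), 8 negative regulators (0.06), 4 antigen presentation genes (0.01), 18 further adaptors and NF-kB components (0.07) or 8 NF-kB inflammatory targets (0.24). Of the negative regulators, SAMHD1, which degrades nucleotides, was closest at 0.18 (limma adjusted p = 0.0566). All 8 NF-kB targets were above 0 in the mean, against 52% of all tested features, with ICAM1, an adhesion molecule, at 0.38 (limma adjusted p = 0.109). CCL2, a monocyte chemokine, was at 1.42 in MDA-MB-231 (limma adjusted p = 0.0572) and at -0.30 in MDA-MB-468 (limma adjusted p = 0.78). None of 13 interferon ligand genes had a named feature, and they were not analysed here.

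In SKBR3 no gene of these lists was called, and the medians were 0.00 for the further interferon-stimulated genes and 0.06 for the NF-kB targets. In MDA-MB-231 the same medians were 0.07 and 0.31, and in MDA-MB-468 0.03 and 0.11.

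The 5 genes with a feature that did not pass the filter were IFI44, IFI44L, BST2, ZBP1 and AIM2, and they were not tested. IFI44, an effector of unsettled function, was 4.45, 4.52 and 4.60 in the MDA-MB-231 controls and 4.88, 5.22 and 5.13 in the treated arrays, with a difference of means of 0.56 in MDA-MB-231, 0.34 in SKBR3 and -0.02 in MDA-MB-468. BST2, tetherin, which holds budding virus at the cell surface, was 3.93, 4.65 and 3.97 in the MDA-MB-468 controls and 4.86, 4.73 and 4.94 in the treated arrays, a difference of 0.66, against 0.10 in MDA-MB-231 and -0.07 in SKBR3. IFI44 in MDA-MB-231 and BST2 in MDA-MB-468 stood apart between groups, at levels under the median of their arrays. So did IFI44 in SKBR3, at 3.67 to 3.93 in the controls and 3.97 to 4.35 in the treated arrays. IFI44L also stood apart in MDA-MB-231, at 4.30 to 4.47 and 4.55 to 4.95. Among tested features, all treated arrays exceeded all controls for 9.28% in MDA-MB-231, 8.41% in MDA-MB-468 and 7.28% in SKBR3. IFI44L differed by 0.41 in MDA-MB-231, 0.24 in MDA-MB-468 and -0.13 in SKBR3, ZBP1, a sensor of Z-form nucleic acid, by -0.13, 0.09 and 0.03, and AIM2 by -0.20, -0.13 and 0.11.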

How the data were processed

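Biotin-labelled RNA was hybridised to Affymetrix arrays. The deposited values are log2 expression values, 1 per feature and array, and per the submitters' processing notes the authors used Transcriptome Analysis Console. Its version, the background correction, the normalization and the build: not given in the sources used here. From the values, a log2 scale was read. Array medians differed between lines, so levels were compared within a line only.

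Features took gene symbols from the platform table: 16098 of 53617 features had 1 symbol, 37519 had none and 0 had several. The genes and lists were chosen with earlier results of these data known. Testing was limited to features whose mean in at least 1 of the 6 groups lay above the median of that group. A group-means model was fitted with limma 3.58.1 in R 4.3.3 on all 18 arrays (12 residual and 4.33 prior degrees of freedom), with an intensity trend and two-sided tests adjusted by Benjamini-Hochberg over 29855 features. The comparisons were each ASO against the control of its line, the mean over MDA-MB-231 and MDA-MB-468, and the difference between these lines. With 3 arrays a group, the number of arrays limits the precision.

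All 6 array values of a line were given for the 6 genes with the smallest p in each comparison with a control and in the mean of both lines, and other genes, including those of the difference between lines, by difference and counts. Array values beyond this, of dim genes and of IFIT2 in SKBR3, were chosen after they were seen. Promoters came from RefSeq GRCh38.p14 and were searched on both strands. 1 promoter stretch is not reported here. The script was tested on simulated data. Alternatives were other scalings, filters, weights, a replicate block, the arrays of the compared lines alone, and omission of each array.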

Additional observations from a re-analysis of the deposited data

How the results depend on the processing

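In the mean of both lines, where 4 genes were called, 1 was called with no filter on dim features (41 genes tested), 14 with array weights, 2 with only the arrays of the compared lines, and 0 to 6 when 1 array was left out. Array weights also gave 10 called genes in MDA-MB-231, 10 in MDA-MB-468 and 1 in the difference between lines, against 0 in each without weights and with all arrays, with weights of 0.377 to 9.62. Leaving out 1 array gave 0 to 5 in MDA-MB-231. The SKBR3 count was 0 in all 15 alternatives. The cause of these shifts was not tested. Over all features, the mean comparison called 478, from 91 to 1434 with 1 array left out and 113 to 5837 otherwise. MDA-MB-231 called 51, from 0 to 2413, MDA-MB-468 called 2, from 0 to 5199, and SKBR3 0, from 0 to 232.

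The SAMD9 call was lost under quantile normalization (limma adjusted p = 0.0507), median centring (0.0587), no trend (0.0628), no filter (0.08) and the compared lines alone (0.0943). HERC5 was lost with no filter (0.0561) and the compared lines alone (0.0516), and IFIT3 with no filter (0.06). IRF1 was lost with no filter (0.0605) and DDX60L with no filter (0.0666) and the compared lines alone (0.0658). With 1 array left out, log2 differences ran from 0.61 to 0.86 for IFIT2, 0.50 to 0.68 for IFIT3, 0.49 to 0.69 for HERC5 and 0.37 to 0.57 for SAMD9. No called gene changed direction in any alternative run.

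With the replicate number as a block, 1 gene was called in the mean of both lines, HERC5 (limma adjusted p = 0.0382), with IFIT2 at 0.107, IFIT3 at 0.0789, SAMD9 at 0.139, IRF1 at 0.0898 and DDX60L at 0.0875, and 113 features in all. Same-numbered arrays of a line correlated in their deviations from the group means by -0.124 to 0.101, and differently numbered arrays by -0.146 to 0.12. The labels do not say what the replicate number stands for, and whether same-numbered arrays share a batch was not tested.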
